A study of Rattus norvegicus with 12 samples.

Results

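Proteasome subunits and the enzymes that activate and conjugate ubiquitin were followed in the injured thoracic spinal cord of rats. Genes were taken by symbol, as those beginning with Psma to Psmg and a number, with Ube2, or with Uba and a number, apart from Psmb8 and Psmb9. A gene was kept when its probe was detected (detection p-value under 0.05) on at least 2 of the 12 arrays. This left 64 genes on 65 probes, of 9336 named genes and 13793 probes tested in all. A further 6 genes that carry such symbols, Psma8, Psmd14, Uba2, Ube2b, Ube2d2b and Ube2e2, were detected on 0 arrays and were not tested. One symbol, Psmc3ip, fits by its letters only, since its product is a cofactor of meiotic recombination and no proteasome subunit.

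The rats were female Sprague-Dawley animals of 10 weeks, either carriers of the G93A mutation of SOD1, a superoxide dismutase, or their wild-type littermates. The mutation is used to model familial amyotrophic lateral sclerosis, and neither the promoter that drives the mutant gene nor the number of rats in a pool is stated in the labels used here. Each genotype was sampled 30 min and 4 h after sham surgery and 30 min, 4 h, 24 h and 7 d after mild compression of the cord. RNA of the rats of 1 genotype and condition was combined into 1 pool before labelling, which gave 12 pools on 12 Illumina arrays. No sham pool was taken at 24 h or 7 d, so that these times were set against the mean of the 4 sham pools, and time since surgery differs there too.

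Ubiquitin is a small protein that marks other proteins for removal. An E1 enzyme activates it, an E2 enzyme carries it, and an E3 ligase places it on the substrate, and related E1 and E2 enzymes do the same for the modifiers NEDD8 and ISG15. The 26S proteasome then degrades the substrate: its 20S core is a barrel of alpha and beta subunits, some of which cut peptides, and its 19S particle, with a ring of ATPases and a set of non-ATPase subunits, binds ubiquitin chains and unfolds the substrate. Interferon induces a variant core, the immunoproteasome, in which Psmb8, Psmb9 and Psmb10 replace the catalytic subunits Psmb5, Psmb6 and Psmb7, and an alternative cap, PA28, made of Psme1 and Psme2. In the nervous system immune cells are the usual site of the variant core, while neurons depend on the standard proteasome to clear misfolded proteins.

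Levels are log2 signals after background correction with an added offset of 16 and quantile normalization, and a difference of 1 is a doubling of signal plus offset. A probe's level is not comparable with that of another probe. A probe without signal lies near 6.45 on this scale, and 15 of the 64 members had a mean level under 7, among them 11 of the 25 E1 and E2 enzymes, so that their differences are understated. 54 of the members were detected on all 12 arrays. Among the 12 pools, wild type at 30 min after injury stood apart. This pool had 41.3% of all probes detected, against 49.6% to 53.8% in the other pools. At that condition 1064 of the 13793 tested probes differed at least 2-fold between the genotypes, against 6 to 116 at the others, and 5 of the 64 members did (Psmb6, Psmc3, Uba3, Ube2j2 and Ube2l3), against 0 at the others. Skeletal muscle RNA was higher there and in the wild-type sham pool of 4 h: Ckm read 8.30 and 8.35, against 6.43 to 7.02 in the other 10 pools, and Acta1 9.09 and 9.52, against 6.71 to 7.90. That sham pool is part of the control at 24 h and 7 d, where 8 members were called without it at either time, and the part of muscle RNA in the results was not tested. Over all 5 tested muscle markers the summed signal was 1528 to 2366 in the sham pools, 920 to 969 at 24 h and 507 to 570 at 7 d. It was 1516 to 2804 at 30 min and 1154 to 1323 at 4 h after injury. Every sham pool thus lay above every pool of 24 h and 7 d, and leaving out 1 sham pool does not remove this. The wild-type 30 min injury pool held the lowest or the highest of the 12 levels for 33 of the 64 members. The rat Sod1 probe read 12.29 to 12.95 in the 12 pools and differed by -0.05 ± 0.10 (SE) between genotypes (adjusted p = 0.979), and whether it also binds a transcript of the mutant gene was not tested, so that it does not check the genotype labels. With 1 pool per genotype and condition, the error of a comparison is the spread of the genotype difference over the conditions, and p-values measure the spread between these pools, not between animals.

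Before 24 h no member passed the threshold (adjusted p under 0.05 in limma, Benjamini-Hochberg over all tested probes). The count was 0 of 64 between the sham times, where 0.0508% of all probes were called and 0 members had an unadjusted p under 0.05. It was 0 at 30 min after injury, where 0.138% of all probes were called and 1 member, the E2 Ube2d1, had an unadjusted p under 0.05 (log2 difference -0.45 ± 0.20). It was also 0 at 4 h, where 0.551% of all probes were called and 0 members had an unadjusted p under 0.05. At 4 h the smallest p belonged to Psme4, whose product caps the core as PA200, with a log2 difference of 0.41 ± 0.21 (unadjusted p = 0.0717, adjusted p = 0.957). Without the G93A pool of 30 min after injury, the comparison at 30 min rests on the wild-type pool alone, and 18 members were then called, 8 higher and 10 lower.

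At 24 h after injury 11 of the 64 members were higher than in the sham pools and 0 were lower. Of all tested probes 20.8% were called at this time, and 17.2% of the members were, so that the share called in either direction was no higher among members. By direction, 17.2% of the members were higher, against 11.4% of all probes, and 0% were lower, against 9.37%. These shares by direction depended on the scaling. On the series matrix values, which move the median of all probes at 24 h to 0.11, 10 members were higher and 2 lower, and with median scaling 16 were higher and 1 lower. The 11 were the 3 measured activators Psme1, Psme2 and Psme4, the core subunits Psmb10 and Psma1, the assembly chaperones Psmd5 and Psmd9, the E2 enzymes Ube2l6, Ube2c and Ube2t, and Psmc3ip. For each of the 11, both pools of 24 h lay above all 4 sham pools. The calls were made on these same pools, so that this is a description and no further support. Members that were not called, among them Psma5, Psmb2 and Psmb3, lay above all sham pools too. At 7 d 8 members were higher and 8 lower, or 25% of the 64, with 21% of all probes called, 11.4% higher and 9.63% lower. Ube2t and Uba7 met the detection filter only through the pools of 24 h and 7 d, where they were high, so that their calls are a description, and without them 10 members were called at 24 h and 14 at 7 d (6 higher and 8 lower). Higher at both times were 7 members, namely Psme1, Psme2, Psme4, Psmb10, Ube2l6, Ube2c and Ube2t. The strip plot of differences by role shows all members at both times.

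**Figure D1:**
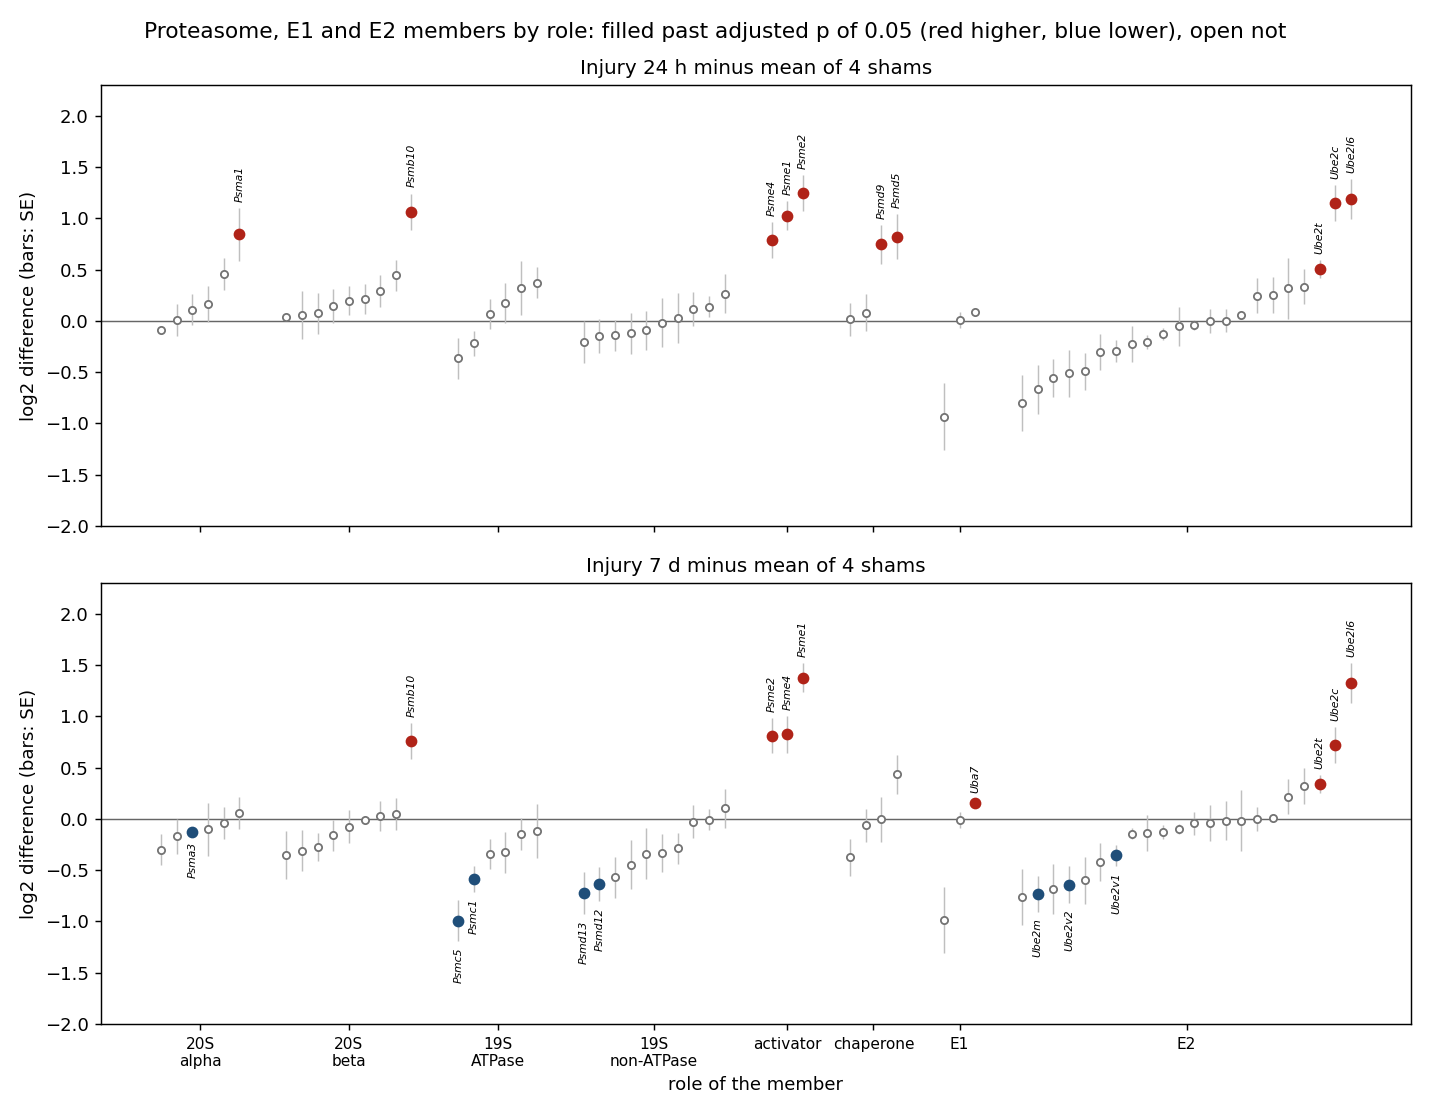
Log2 difference from the mean of the 4 sham pools (y axis, points, with bars of 1 SE from limma) for each member, grouped by role (x axis) and ordered within a role, at 24 h (top) and 7 d (bottom); filled points passed an adjusted p of 0.05. All 3 activators lie above 0 at both times, and the 19S subunits lie mostly below 0 at 7 d; Psmc3ip is left out of the plot.

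The number of calls depended on single pools. At 24 h it was 6 without the wild-type 24 h pool, 7 without the G93A 24 h pool, 23 without either pool of 30 min after injury, 8 without the wild-type sham pool of 4 h and 8 without the G93A sham pool of 30 min. At 7 d the count of 16 became 2 without the wild-type 7 d pool, 7 without the G93A 7 d pool, 28 without either pool of 30 min after injury, and 8 to 13 without 1 of the sham pools. The calls of Psme1, Psme2, Psmb10, Ube2l6 and Ube2c at 24 h stood in every alternative in which they were tested, and so did those of Psme1 and Ube2l6 at 7 d. The 24 h call of Ube2t stood as well, but it remains a description, since Ube2t met the detection filter only through the late pools.

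The activators were higher at both times. Psme1, the alpha subunit of PA28, read 11.07 and 10.86 in the wild-type sham pools of 30 min and 4 h and 10.91 and 11.04 in the G93A ones. Psme1 after injury read, in the wild-type and G93A pools, 11.08 and 10.87 at 30 min, 11.14 and 10.99 at 4 h, 12.01 and 11.97 at 24 h, and 12.40 and 12.29 at 7 d. The 24 h and 7 d pools were higher than all other pools, and they did not overlap with them in either genotype. The log2 difference from the shams was 1.02 ± 0.14 (SE, adjusted p = 0.000962) at 24 h and 1.38 ± 0.14 (SE, adjusted p = 9.19e-05) at 7 d, or 2.03-fold and 2.6-fold. Psme2, the beta subunit, read 8.14 and 8.21 in the wild-type sham pools of 30 min and 4 h and 8.26 and 8.27 in the G93A ones. Psme2 after injury read, in the wild-type and G93A pools, 8.42 and 8.25 at 30 min, 8.56 and 8.38 at 4 h, 9.56 and 9.37 at 24 h, and 8.99 and 9.08 at 7 d. Its levels peaked at 24 h, and the log2 difference was 1.25 ± 0.17 (SE, adjusted p = 0.000933) at 24 h and 0.81 ± 0.17 (SE, adjusted p = 0.00733) at 7 d. The 7 d call of Psme2 was lost without either 7 d pool (adjusted p up to 0.0824). Between 7 d and 24 h neither subunit passed the threshold, with 0.35 ± 0.16 for Psme1 (adjusted p = 0.338) and -0.43 ± 0.20 for Psme2 (adjusted p = 0.326). Psme4, which forms the separate nuclear cap PA200, read 9.11 and 9.32 in the wild-type shams and 8.93 and 9.16 in the G93A shams. Psme4 after injury read, in wild type and G93A, 8.98 and 9.21 at 30 min, 9.57 and 9.74 at 4 h, 10.04 and 9.79 at 24 h, and 10.05 and 9.86 at 7 d. Both pools of 4 h after injury already lay above the sham pools, without passing the test, and the log2 difference was 0.79 ± 0.18 (SE, adjusted p = 0.0116) at 24 h and 0.82 ± 0.18 (SE, adjusted p = 0.00822) at 7 d. Its call was lost at 24 h without either 24 h pool (adjusted p up to 0.193) and with the 4 h shams alone as control (0.67, adjusted p = 0.0587), and at 7 d without the wild-type 7 d pool (adjusted p up to 0.151).

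Psmb10, the immunoproteasome subunit that takes the place of Psmb7, read 10.15 and 10.44 in the wild-type shams and 10.01 and 10.37 in the G93A shams. Psmb10 after injury read, in wild type and G93A, 10.59 and 10.09 at 30 min, 10.36 and 10.41 at 4 h, 11.36 and 11.25 at 24 h, and 11.28 and 10.72 at 7 d. The 24 h pools and the 7 d pools all lay above the sham pools, with the G93A 7 d pool the lowest of them. Its log2 difference was 1.07 ± 0.18 (SE, adjusted p = 0.00246) at 24 h and 0.76 ± 0.18 (SE, adjusted p = 0.0114) at 7 d, and the 7 d call was lost without the wild-type 7 d pool (0.55, adjusted p = 0.248), on the series matrix values (adjusted p = 0.0518) and with the 4 h shams alone as control (adjusted p = 0.0767). A second probe of Psmb10 gave 1.07 ± 0.23 (SE) at 24 h and 0.81 ± 0.23 at 7 d. Ube2l6, the E2 that carries ISG15 in the interferon response, read 7.03 and 7.03 in the wild-type shams and 7.08 and 7.28 in the G93A shams. Ube2l6 after injury read, in wild type and G93A, 7.19 and 7.14 at 30 min, 7.08 and 7.09 at 4 h, 8.17 and 8.42 at 24 h, and 8.68 and 8.18 at 7 d. No pool before 24 h exceeded 7.28, and no pool of 24 h or 7 d lay under 8.17. Its log2 difference was 1.19 ± 0.19 (SE, adjusted p = 0.00224) at 24 h and 1.33 ± 0.19 (SE, adjusted p = 0.000902) at 7 d.

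Uba7, the E1 that activates ISG15, was a dim probe, detected in 1 sham pool, in 0 early injury pools and in all 4 pools of 24 h and 7 d, through which alone it passed the filter. Its levels were 6.44 and 6.46 in the wild-type shams and 6.47 and 6.51 in the G93A shams. Uba7 after injury read, in wild type and G93A, 6.48 and 6.44 at 30 min, 6.45 and 6.44 at 4 h, 6.57 and 6.55 at 24 h, and 6.71 and 6.54 at 7 d. Its log2 difference was 0.09 ± 0.04 at 24 h and 0.15 ± 0.04 at 7 d, and with no filter the adjusted p was 0.2 at 24 h and 0.0307 at 7 d. The wild-type 7 d pool was the highest, and without it (0.06, adjusted p = 0.333) or either wild-type sham pool, without background correction, without the intensity trend, or with the 4 h shams alone as control, the 7 d call was lost.

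Psmb10, Psme1 and Psme2 belong to a list of 9 immunoproteasome and peptide loading genes, of which 7 were higher at 24 h and 8 at 7 d, with a median log2 difference of 1.07 and 0.86, against -0.01 for all probes at both times. This list was drawn up with earlier results of these data known. Its counts and medians include Psmb10, Psme1 and Psme2, so that they are no separate support for these members. Psmb8 rose by 2.27 ± 0.27 (SE) at 24 h and by 2.49 ± 0.27 at 7 d, and Psmb9 by 1.66 ± 0.19 and 1.24 ± 0.19. Tap2 and Tapbp, which load peptides on class I molecules, were also higher at both times, and B2m, the light chain of class I, was higher at 7 d by 0.84 ± 0.14. Tap1 was not called, with 0.13 ± 0.11 at 24 h and 0.25 ± 0.11 at 7 d.

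Of 10 tested interferon response genes, 7 were higher at 24 h and 6 at 7 d, among them Mx1, Mx2 and Irf7, with a median log2 difference of 1.10 and 0.86. Their summed signal was 5350 to 6505 in the sham pools, 8876 to 9536 at 24 h and 8116 to 12844 at 7 d, and Isg15 was detected on 0 arrays. Of 10 tested macrophage markers 7 were higher at 24 h and 6 at 7 d, and their summed signal was 6359 to 7673 in the sham pools, 16955 to 19331 at 24 h and 21345 to 27073 at 7 d. Of 5 tested microglial markers 2 were higher at 24 h and 4 at 7 d, with a summed signal of 1969 to 2393 in the sham pools, 3102 to 3114 at 24 h and 7418 to 7429 at 7 d. The part of these cells in the higher levels of PA28, Psmb10 and Ube2l6 was not tested. In a cord lysate, more cells of a type and more RNA per cell cannot be told apart.

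**Figure D2:**
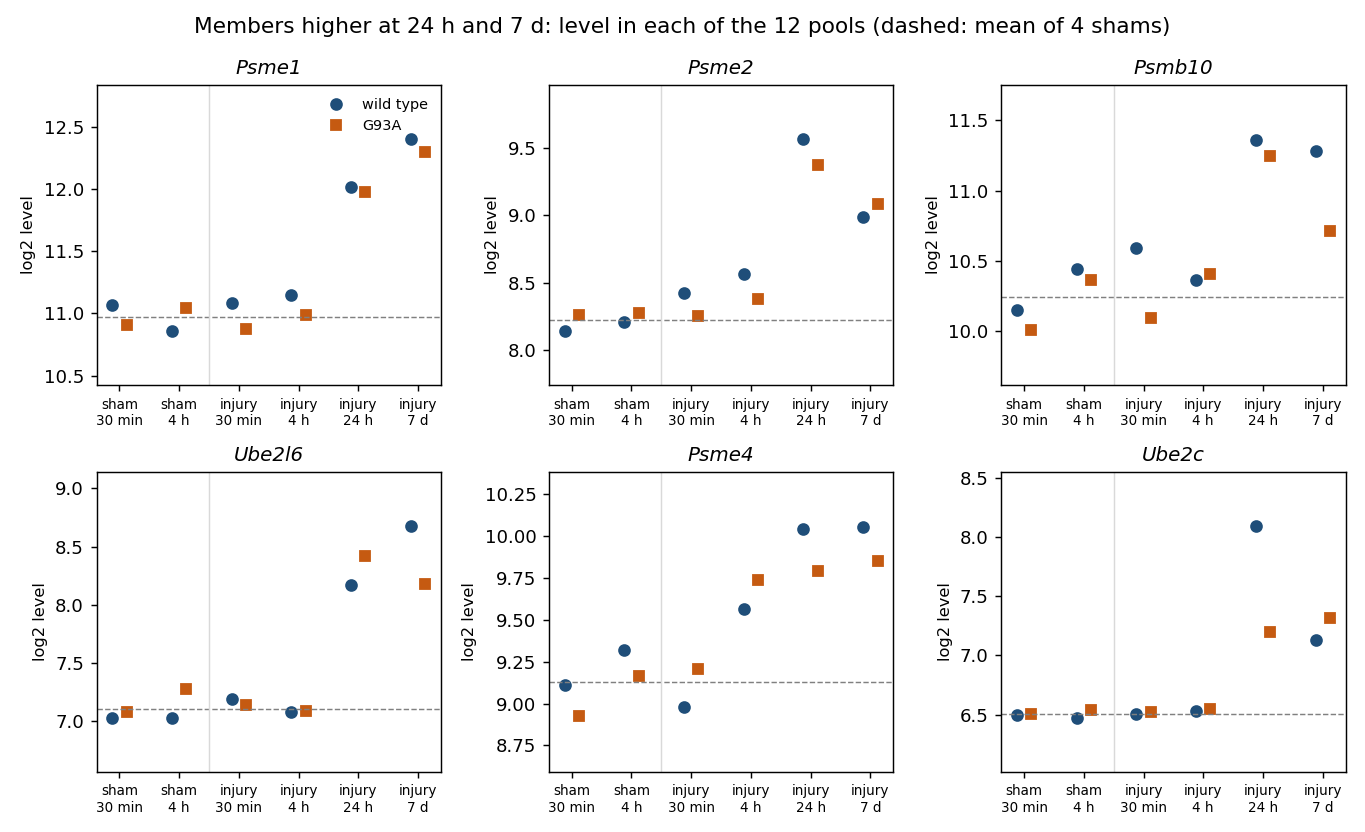
Log2 level (y axis) of 6 members that were higher at both 24 h and 7 d, in each of the 12 pools by condition (x axis); circles are wild-type pools, squares G93A pools, the dashed line is the mean of the 4 sham pools, and each point is 1 pool without an error bar. Psme1, Psme2, Psmb10 and Ube2l6 lie near the dashed line up to 4 h in most pools and above it at 24 h and 7 d in both genotypes.

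Promoter sequences are shown for the 4 genes of the immunoproteasome and ISG15 branch above and for Psmb5, a catalytic subunit that did not pass the test, because these genes share or lack a change. They were taken from RefSeq on build GRCr8, from 250 bases before to 50 after the gene's start, on the strand of the gene. Capitals mark matches to GAAANNGAA, the core of the interferon-stimulated response element, to TGACNNNGC, the core of the antioxidant response element, or to CCAAT, each on either strand. Psme1 is at chr15:33038721-33039020 on the plus strand, Psme2 at chr15:33052702-33053001 on the minus strand, Psmb10 at chr19:50743243-50743542 on the minus strand, Ube2l6 at chr3:90279455-90279754 on the plus strand and Psmb5 at chr15:32047330-32047629 on the minus strand.
Psme1: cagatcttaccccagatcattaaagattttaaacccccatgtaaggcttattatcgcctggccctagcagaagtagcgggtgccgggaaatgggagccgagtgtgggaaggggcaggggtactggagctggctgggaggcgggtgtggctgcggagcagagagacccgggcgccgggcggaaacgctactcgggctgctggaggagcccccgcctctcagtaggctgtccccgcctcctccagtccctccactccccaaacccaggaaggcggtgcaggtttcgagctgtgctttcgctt
Psme2: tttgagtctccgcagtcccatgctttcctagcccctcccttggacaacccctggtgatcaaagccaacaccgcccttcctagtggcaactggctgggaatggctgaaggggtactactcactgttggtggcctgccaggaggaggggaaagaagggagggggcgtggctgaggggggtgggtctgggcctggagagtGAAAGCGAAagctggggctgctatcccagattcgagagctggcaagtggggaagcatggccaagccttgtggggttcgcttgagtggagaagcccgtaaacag
Psmb10: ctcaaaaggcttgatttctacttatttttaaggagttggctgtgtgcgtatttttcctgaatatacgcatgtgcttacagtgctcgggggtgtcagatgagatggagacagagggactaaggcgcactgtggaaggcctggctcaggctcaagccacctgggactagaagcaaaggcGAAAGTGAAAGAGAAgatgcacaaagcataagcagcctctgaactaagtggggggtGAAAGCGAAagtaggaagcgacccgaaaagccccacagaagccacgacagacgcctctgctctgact
Ube2l6: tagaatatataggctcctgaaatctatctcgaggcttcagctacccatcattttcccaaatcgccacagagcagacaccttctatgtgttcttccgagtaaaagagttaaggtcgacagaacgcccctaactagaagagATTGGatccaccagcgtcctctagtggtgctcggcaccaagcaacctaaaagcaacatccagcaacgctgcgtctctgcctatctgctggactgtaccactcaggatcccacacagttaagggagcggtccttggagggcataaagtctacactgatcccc
Psmb5: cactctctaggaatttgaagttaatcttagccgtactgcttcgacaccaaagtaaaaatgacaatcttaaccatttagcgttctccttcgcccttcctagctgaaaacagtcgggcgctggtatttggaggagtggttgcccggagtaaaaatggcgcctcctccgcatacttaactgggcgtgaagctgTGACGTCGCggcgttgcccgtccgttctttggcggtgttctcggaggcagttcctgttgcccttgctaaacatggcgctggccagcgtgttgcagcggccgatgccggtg

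The window of Psmb10 held 3 matches to the interferon core, 2 of them overlapping, and that of Psme2 held 1. In Psme1 and Ube2l6 these letters were not in the window, and Ube2l6 had 1 CCAAT match on the minus strand. The windows of Psme1 and Psme2 lie 13.7 kb apart on chromosome 15, on opposite strands. The window of Psmb5 held 1 match to the antioxidant core. Of the 64 members, 59 had a promoter in the table. The interferon core was in 8 of the 59 (13.6%), against 9.71% of all 33469 promoters, and apart from Psmb10 and Psme2 none of the 8 was called at 24 h or 7 d (Psma4, Psmb2, Psmb3, Psmd7, Psmd11 and Ube2d3). The antioxidant core, the kind of site through which Nfe2l1 and Nfe2l2 act, was in 16 of the 59 (27.1%), against 12.1% of all promoters. It was in 6 of 28 matched 26S subunits (21.4%) and in 6 of 20 matched E2 enzymes (30%), and so was not particular to the subunits. CCAAT was in 23 (39%), against 37.5%. The letters CCGGAAG of an ETS site were in 21 (35.6%), against 8.75%, and were spread over subunits and E2 enzymes alike, with 10 of 28 matched 26S subunits and 7 of 20 matched E2 enzymes. These letters may overlap with other motifs, and a match is a description of the sequence alone. The 33469 promoters were not limited to genes detected here, while the members were, so that all these shares compare unlike sets.

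Among the E2 enzymes of the cell cycle, Ube2c, which works with the anaphase-promoting complex in mitosis, read 6.50 and 6.47 in the wild-type shams and 6.50 and 6.54 in the G93A shams. Ube2c after injury read, in wild type and G93A, 6.51 and 6.52 at 30 min, 6.53 and 6.54 at 4 h, 8.10 and 7.20 at 24 h, and 7.13 and 7.32 at 7 d. All pools up to 4 h lay between 6.47 and 6.54, near the level of a probe without signal. The wild-type 24 h pool was the highest, at 1.61 above the wild-type shams, against 0.68 for the G93A pool, and this difference between genotypes at a single time was not tested. The log2 difference was 1.15 ± 0.18 (SE, adjusted p = 0.00174) at 24 h and 0.72 ± 0.18 (SE, adjusted p = 0.0154) at 7 d. On the deposited series matrix values, floored at 8, it was 2.91 at 24 h and 2.48 at 7 d. Without background correction it was 3.63 and 3.11. The series matrix values lie on a straight line with the deposited intensities, and the intercept of this line differs between arrays. The intercept was 2.65 to 5.82 in the sham pools, 9.26 and 7.70 at 24 h and 7.34 and 6.01 at 7 d. The series matrix differences are thus not free of an added constant. The 7 d call of Ube2c was lost without either 7 d pool or either wild-type sham pool (adjusted p up to 0.173) and without the intensity trend (adjusted p = 0.0731).

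Ube2t, the E2 of the Fanconi anaemia repair pathway, was not detected in any sham pool and was detected in both pools at 24 h and at 7 d. Its levels were 6.45 and 6.45 in the wild-type shams and 6.47 and 6.47 in the G93A shams. Ube2t after injury read, in wild type and G93A, 6.47 and 6.50 at 30 min, 6.47 and 6.48 at 4 h, 7.20 and 6.74 at 24 h, and 6.81 and 6.79 at 7 d. It was detected in 1 of the 4 early injury pools and so passed the filter only through the late pools. Against the detection floor it was at least 1.41-fold higher at 24 h and at least 1.25-fold higher at 7 d. With no filter on detection the adjusted p was 0.00507 at 24 h and 0.035 at 7 d, and in the filtered fit the 7 d call was lost without either 7 d pool, either wild-type sham pool or the intensity trend (adjusted p up to 0.149). These folds set the mean of the pools with signal against a floor, which is on each array the lowest detected signal or, where higher, the probe's own signal. Ube2s, which extends the chains that Ube2c starts, was not called, with -0.51 ± 0.23 at 24 h (adjusted p = 0.14) and -0.60 ± 0.23 at 7 d (adjusted p = 0.0895). Psmc3ip rose by 0.26 ± 0.05 (SE) at 24 h (adjusted p = 0.00644) from a dim level of 6.60 to 6.66 in the shams, and was not called at 7 d. Its 24 h call was lost without the wild-type 24 h pool (0.22, adjusted p = 0.122) and on the series matrix values (0.91, adjusted p = 0.0531).

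Of 12 tested cycling cell genes 9 were higher at 24 h and 10 at 7 d, with a summed signal of 3355 to 4163 in the sham pools, 6893 to 8493 at 24 h and 6145 to 6371 at 7 d. Of 12 tested genes of the anaphase-promoting complex, Cdc20, its activator in mitosis, was higher at both times, with 0.63 ± 0.11 and 0.57 ± 0.11, and Anapc1 was higher at 24 h. Whether Ube2c and Ube2t moved with a count of cycling cells was not tested.

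No catalytic subunit of the standard core passed the test at 24 h. Psmb5, Psmb6 and Psmb7, which carry the chymotrypsin-like, caspase-like and trypsin-like activities, had log2 differences of 0.21 ± 0.15, 0.06 ± 0.23 and 0.07 ± 0.20 (adjusted p from 0.35 to 0.895). Psmb5 read 11.70 and 11.76 in the wild-type shams and 12.06 and 12.03 in the G93A shams. Psmb5 after injury read, in wild type and G93A, 12.16 and 11.95 at 30 min, 12.01 and 11.91 at 4 h, 12.07 and 12.13 at 24 h, and 11.73 and 11.72 at 7 d. Psmb6 read 11.39 and 11.53 in the wild-type shams and 11.54 and 11.44 in the G93A shams. Psmb6 after injury read, in wild type and G93A, 12.38 and 11.22 at 30 min, 11.51 and 11.37 at 4 h, 11.58 and 11.49 at 24 h, and 11.13 and 11.11 at 7 d. In both genes the pools of 24 h overlapped with the sham pools, or exceeded them by less than the spread between sham pools. Their largest level was that of the wild-type pool of 30 min after injury, the pool that stood apart. Psmb7 likewise read 12.16 there, against 11.17 to 11.65 in the shams.

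Over the 15 tested 20S genes, 14 had a difference above 0 at 24 h, with a median of 0.16 against -0.01 for all probes. The 14 include the immunoproteasome subunit Psmb10. They also include Psmb11, which lay near the level without signal, at 6.42 to 6.51, and was detected in 1 sham pool and 1 pool of 24 h only. The 2 called were Psmb10 and Psma1. Psma1, an alpha ring subunit, read 8.0 and 7.94 in the wild-type shams and 7.84 and 7.65 in the G93A shams. Psma1 after injury read, in wild type and G93A, 7.04 and 7.96 at 30 min, 7.73 and 8.12 at 4 h, 8.88 and 8.52 at 24 h, and 7.80 and 7.71 at 7 d. It was highest in the 24 h pools and back among the shams at 7 d, and the log2 difference at 24 h was 0.84 ± 0.26 (SE, adjusted p = 0.0416). That call was made in 9 of 23 alternatives and was lost without any 1 of the pools other than those of 30 min after injury (adjusted p up to 0.416). Psma5 and Psmb2 came next, with 0.46 ± 0.16 (adjusted p = 0.0603) and 0.44 ± 0.15 (adjusted p = 0.0599). With median scaling in place of quantile normalization, the 20S median at 24 h was 0.46 and 6 of the 15 were called higher.

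The chaperones that assemble the proteasome divided. Psmd5 and Psmd9, which guide the assembly of the 19S base, were higher at 24 h, by 0.82 ± 0.22 (SE, adjusted p = 0.0237) and 0.75 ± 0.19 (SE, adjusted p = 0.0186). Psmd5 read 8.29 and 8.20 in the wild-type shams and 8.03 and 8.26 in the G93A shams. Psmd5 after injury read, in wild type and G93A, 7.56 and 8.16 at 30 min, 8.47 and 8.79 at 4 h, 9.19 and 8.84 at 24 h, and 8.22 and 8.16 at 7 d. It was back at the level of the shams at 7 d, with 0.00 ± 0.22. Psmd9 read 7.78 and 7.83 in the wild-type shams and 7.62 and 7.87 in the G93A shams. Psmd9 after injury read, in wild type and G93A, 8.37 and 7.85 at 30 min, 8.16 and 8.27 at 4 h, 8.48 and 8.56 at 24 h, and 8.33 and 8.10 at 7 d. Its 7 d difference was 0.44 ± 0.19 (adjusted p = 0.131). The 24 h calls of both were lost without either 24 h pool or the G93A sham pool of 30 min, among others (adjusted p up to 0.334 for Psmd5 and 0.181 for Psmd9), and with the 4 h shams alone as control (adjusted p = 0.0715 and 0.0719). That of Psmd5 was also lost without background correction and that of Psmd9 on the series matrix values. Psmg1 and Psmg2, which pair to build the alpha ring, were not called at either time, with 0.01 ± 0.16 and 0.08 ± 0.18 at 24 h. Pomp, the maturation factor of the core and no member by symbol, was higher at 24 h by 0.79 ± 0.17 (adjusted p = 0.00803) and not at 7 d, with 0.18 ± 0.17.

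The 19S particle had calls at 7 d only, and all of them lower. At 24 h 0 of 16 tested subunits were called, where 20.8% of all probes were. Of the 16, 8 lay above 0, and their median was 0.01. This median became -0.03 on the series matrix values or with the 4 h shams alone as control. With median scaling it was 0.16, and 1 subunit was called higher. At 7 d 15 of the 16 lay below 0, with a median of -0.33 against -0.01 for all probes, and 4 were called lower and 0 higher. The 4 are 25% of the 16, against 9.63% of all probes called lower and 21% called in either direction. The median of the 16 was -0.41 with median scaling and between -0.35 and -0.31 under the other scalings and controls. By genotype, 14 of the 16 lay below their own shams in wild type and 14 in G93A, 12 of them in both. The 4 calls became 0 without the wild-type 7 d pool, 2 without the G93A 7 d pool, 6 without either pool of 30 min after injury, and 2 or 3 without 1 of the sham pools.

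Psmc5, an ATPase of the base, read 11.47 and 11.47 in the wild-type shams and 11.62 and 11.26 in the G93A shams. Psmc5 after injury read, in wild type and G93A, 11.11 and 11.47 at 30 min, 11.37 and 11.19 at 4 h, 10.91 and 11.28 at 24 h, and 10.11 and 10.82 at 7 d. Both 7 d pools lay below every other pool, the wild-type pool by more, and the log2 difference was -0.99 ± 0.20 (SE, adjusted p = 0.00558). Psmc1, also a base ATPase, read 12.76 and 12.93 in the wild-type shams and 12.84 and 12.94 in the G93A shams. Psmc1 after injury read, in wild type and G93A, 12.47 and 12.72 at 30 min, 12.72 and 12.95 at 4 h, 12.61 and 12.69 at 24 h, and 12.06 and 12.50 at 7 d. The wild-type 7 d pool was the lowest, the G93A 7 d pool lay near the wild-type pool of 30 min after injury, and both pools of 24 h already lay below the shams, without passing the test. Its log2 difference was -0.59 ± 0.13 (SE, adjusted p = 0.00789). Without the wild-type 7 d pool neither was called (-0.69, adjusted p = 0.168 for Psmc5; -0.43, adjusted p = 0.189 for Psmc1), and on the series matrix values Psmc1 was not (-0.42, adjusted p = 0.156). Psmd12, a scaffold subunit of the lid, read 10.87 and 11.01 in the wild-type shams and 11.09 and 10.78 in the G93A shams. Psmd12 after injury read, in wild type and G93A, 10.68 and 10.98 at 30 min, 11.06 and 11.07 at 4 h, 10.75 and 10.83 at 24 h, and 10.12 and 10.48 at 7 d. Psmd13, another lid subunit, read 9.50 and 9.69 in the wild-type shams and 9.76 and 9.79 in the G93A shams. Psmd13 after injury read, in wild type and G93A, 10.09 and 9.56 at 30 min, 9.81 and 9.40 at 4 h, 9.45 and 9.51 at 24 h, and 9.11 and 8.82 at 7 d. For both, the pair of 7 d pools was the lowest of the series, and the log2 differences were -0.64 ± 0.17 (SE, adjusted p = 0.0201) and -0.73 ± 0.20 (SE, adjusted p = 0.0281). Both calls were lost without either 7 d pool and without some sham pools (adjusted p up to 0.29), and with no filter or with the 4 h shams alone as control (adjusted p up to 0.0764). The one 19S subunit above 0 at 7 d was Psmd11, a lid subunit, with 0.10 ± 0.19 (adjusted p = 0.761), which was -0.26 in wild type and 0.46 in G93A. Psmd1 and Psmd2, the large scaffold subunits of the base, had -0.57 ± 0.20 (adjusted p = 0.0689) and -0.45 ± 0.24 (adjusted p = 0.218).

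**Figure D3:**
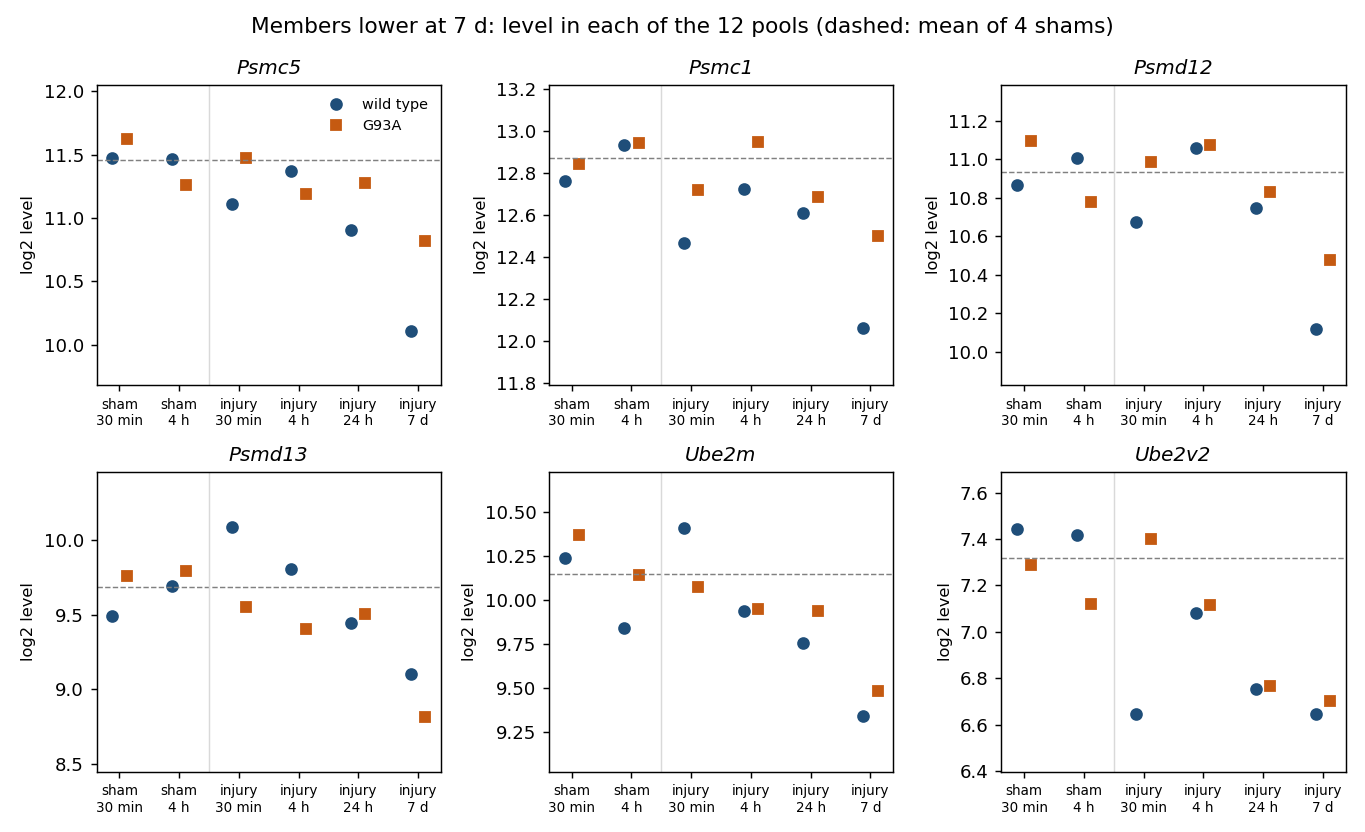
Log2 level (y axis) of 6 members that were lower at 7 d, in each of the 12 pools by condition (x axis); circles are wild-type pools, squares G93A pools, and the dashed line is the mean of the 4 sham pools. The 2 pools of 7 d lie below all 4 sham pools in each panel, and in Ube2v2 and Psmc1 those of 24 h do so as well.

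The core at 7 d held 1 call in each direction, with Psmb10 higher and Psma3 lower. Psma3, an alpha subunit, was dim at 6.53 to 6.70 in all pools. Its difference was -0.12 ± 0.04 (adjusted p = 0.0433), or -1.33 without background correction, and the call was made in 8 of 23 alternatives and was lost without any 1 of the pools other than those of 30 min after injury (adjusted p up to 0.30). Psmb5, Psmb6 and Psmb7 had -0.16 ± 0.15, -0.35 ± 0.23 and -0.31 ± 0.20 at 7 d and were not called (adjusted p from 0.318 to 0.508). The median of the 15 was -0.10, with 4 above 0.

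Set directly against 24 h, all 31 tested 26S subunits had a lower level at 7 d, 30 of them in both genotypes, with a median log2 difference of -0.37 against -0.01 for all probes. Psmb11, near the level without signal, is among the 31. Under median scaling 29 of the 31 were lower, with a median of -0.67. None of the 64 members passed the test on its own, where 4.52% of all probes were called, and 12 members had an unadjusted p under 0.05. The smallest p belonged to Psmd5 (-0.82 ± 0.25, adjusted p = 0.107), Psma1 (-0.94 ± 0.30, adjusted p = 0.12) and the core subunit Psmb4 (-0.47 ± 0.16, adjusted p = 0.151). Without either pool of 30 min after injury 3 members were called lower (Psma1, Psmc4 and Psmd5), and without the G93A 24 h pool 2 were.

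**Figure D4:**
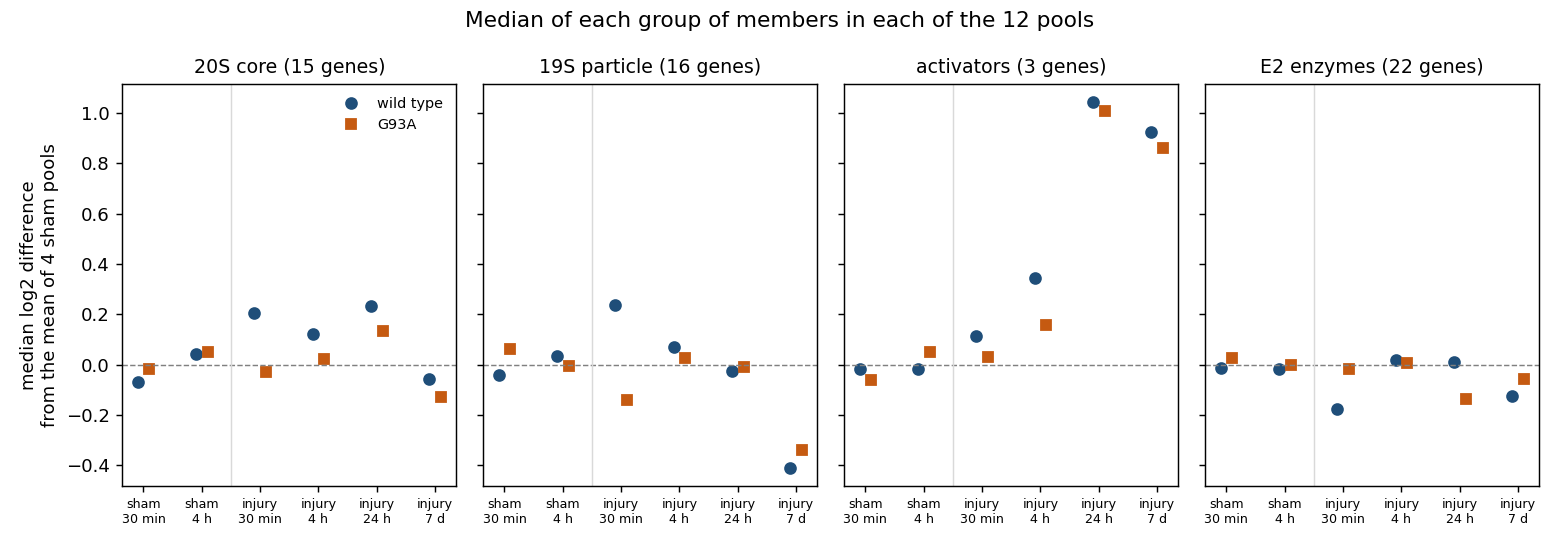
Median over the genes of a group of the log2 difference from the mean of the 4 sham pools (y axis), in each of the 12 pools by condition (x axis); circles are wild-type pools and squares G93A pools, and the points carry no error bar. The activators lie at 0.86 to 1.04 at 24 h and 7 d, and the 19S particle at -0.41 in wild type and -0.34 in G93A at 7 d.

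Markers of neurons moved over the same times. Of 11 tested neuron markers 5 were lower at 24 h and 9 at 7 d, with a median log2 difference of -0.80 and -1.34, which at 7 d was -1.68 in wild type and -0.74 in G93A. Their summed signal was 48376 to 53478 in the sham pools, 29138 to 35402 at 24 h and 17524 to 29850 at 7 d, and all 11 were detected. Oligodendrocyte markers were lower in 7 of 9 at 24 h and 5 of 9 at 7 d, with a summed signal of 38023 to 42291 in the sham pools, 21132 to 21566 at 24 h and 23686 to 27974 at 7 d. Astrocyte markers were lower in 6 of 8 at 24 h and 4 of 8 at 7 d, with a summed signal of 15004 to 16509, 6623 to 7318 and 13022 to 16442. The part of the makeup of cells in the lower level of the 19S subunits was not tested.

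Among the other E2 enzymes, 1 of the NEDD8 branch was called. Ube2m, the main E2 of NEDD8, which switches on cullin ligases, read 10.24 and 9.84 in the wild-type shams and 10.37 and 10.14 in the G93A shams. Ube2m after injury read, in wild type and G93A, 10.41 and 10.07 at 30 min, 9.94 and 9.95 at 4 h, 9.76 and 9.94 at 24 h, and 9.34 and 9.48 at 7 d. The 7 d pools were the lowest, and the log2 difference was -0.73 ± 0.18 (SE, adjusted p = 0.0139), against -0.30 ± 0.18 at 24 h (adjusted p = 0.26). The 7 d call was lost without either 7 d pool or either G93A sham pool (adjusted p up to 0.181) and with the 4 h shams alone as control (-0.58, adjusted p = 0.0876). Uba3, the catalytic subunit of the E1 of NEDD8, read 8.79 and 8.83 in the wild-type shams and 8.79 and 8.45 in the G93A shams. Uba3 after injury read, in wild type and G93A, 7.74 and 9.21 at 30 min, 8.99 and 8.64 at 4 h, 7.61 and 7.95 at 24 h, and 7.66 and 7.80 at 7 d. The pools of 24 h and 7 d lay below all sham pools, but so did the wild-type pool of 30 min after injury, and the log2 differences of -0.94 ± 0.33 and -0.99 ± 0.33 did not pass the test (adjusted p = 0.0652 and 0.0542). Without either pool of 30 min after injury Uba3 was called lower at both times (adjusted p = 0.00146 or 0.00157 at 24 h and 0.000959 or 0.00104 at 7 d). Ube2f, the second E2 of NEDD8, had 0.33 ± 0.17 at 24 h and 0.22 ± 0.17 at 7 d (adjusted p = 0.195 and 0.423).

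Ube2v1 and Ube2v2 are inactive partners that let Ube2n build chains of a kind that serves in signalling and DNA repair. Ube2v2 read 7.44 and 7.42 in the wild-type shams and 7.29 and 7.12 in the G93A shams. Ube2v2 after injury read, in wild type and G93A, 6.65 and 7.40 at 30 min, 7.08 and 7.12 at 4 h, 6.75 and 6.77 at 24 h, and 6.65 and 6.70 at 7 d. The 24 h and 7 d pools lay below all sham pools, and the log2 difference was -0.56 ± 0.18 at 24 h (adjusted p = 0.0522) and -0.64 ± 0.18 (SE, adjusted p = 0.0291) at 7 d. Without background correction, which lifts the differences of dim probes, Ube2v2 gave -1.33 at 24 h and -1.77 at 7 d, and the 7 d difference no longer passed the test (adjusted p = 0.0709), as with the 4 h shams alone as control (adjusted p = 0.089) and without the intensity trend. Ube2v1 was dimmer and lay between 6.45 and 7.10, with -0.30 ± 0.11 at 24 h (adjusted p = 0.0728) and -0.36 ± 0.11 at 7 d (adjusted p = 0.0362). The 7 d calls of both were lost without either pool of 24 h or of 7 d, among others (adjusted p up to 0.243 for Ube2v2 and 0.226 for Ube2v1), and that of Ube2v1 under 6 other alternatives too, among them no filter and median scaling. It was -1.94 at 7 d without background correction. Ube2n itself lay within 6.46 to 6.62 in all pools, near the level without signal, and had 0.05 ± 0.04 at 24 h and 0.01 ± 0.04 at 7 d.

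Of the E2 enzymes of the endoplasmic reticulum none was called. At 24 h and 7 d Ube2g1 had -0.49 ± 0.18 and -0.42 ± 0.18, Ube2g2 0.25 ± 0.17 and 0.32 ± 0.17, and Ube2j2 0.32 ± 0.30 and -0.02 ± 0.30. Ube2j1, of the same compartment, was dim and lay below all sham pools at both times. In wild type and G93A it read 6.52 and 6.47 at 24 h and 6.44 and 6.52 at 7 d. The shams read 6.57 to 6.66. With array weights Ube2j1 was called lower at both times. The promiscuous E2 enzymes Ube2d1 and Ube2d3 were not called either, with -0.23 ± 0.18 and 0.00 ± 0.11 at 24 h, nor was Ube2k, with -0.04 ± 0.05 at 24 h and -0.10 ± 0.05 at 7 d. Ube2l3, the E2 of parkin and of the linear chain complex, read 9.50 and 9.37 in the wild-type shams and 9.85 and 9.72 in the G93A shams. Ube2l3 after injury read, in wild type and G93A, 10.40 and 9.31 at 30 min, 9.35 and 9.26 at 4 h, 8.69 and 8.93 at 24 h, and 8.84 and 8.86 at 7 d. It lay below the shams at 24 h and 7 d in both genotypes and was 10.40 in the wild-type pool of 30 min after injury, and its differences of -0.80 ± 0.28 and -0.76 ± 0.28 did not pass the test (adjusted p = 0.0627 and 0.0754). Ube2q2l gave -0.67 ± 0.24 and -0.68 ± 0.24 in the same comparisons (adjusted p = 0.0738 and 0.0687). Uba6, a second E1 of ubiquitin, was dim and had 0.01 ± 0.08 and -0.01 ± 0.08. Over all 22 E2 enzymes the median was -0.05 at 24 h and -0.07 at 7 d, with 3 higher and 0 lower at 24 h and 3 higher and 3 lower at 7 d. The called were 13.6% and 27.3% of the 22, against 20.8% and 21% of all probes.

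Genes around the proteasome were read from lists chosen with earlier results known. Of all probes 0.551% were called at 4 h after injury, 20.8% at 24 h and 21% at 7 d, and a share near these does not set a list apart. At 4 h after injury 3 of 26 ubiquitin ligases were higher, Mdm2, the ligase of p53, by 1.63 ± 0.19, Birc2 by 1.59 ± 0.24 and Birc3 by 0.85 ± 0.09, and 2 of 12 regulators of proteasome genes, Mafk by 1.27 ± 0.20 and Maff by 0.23 ± 0.04. No other of these lists had a call at that time. Of the 12 regulators, Keap1, which holds Nfe2l2 down, differed at 24 h by -1.06 ± 0.24, and Stat3 and Mafk were higher, by 0.78 ± 0.22 and 0.63 ± 0.18. Nfe2l2 was higher at 7 d, by 0.76 ± 0.20, with 0.12 ± 0.20 at 24 h (adjusted p = 0.735). Of 6 cofactors, Pomp and Zfand2a were higher at 24 h, and Adrm1, a ubiquitin receptor of the 19S particle, and Usp14, its deubiquitinase, were lower at 7 d, by -0.59 ± 0.19 and -0.56 ± 0.15. Of 18 deubiquitinases 1 was higher and 3 lower at 24 h and 0 higher and 4 lower at 7 d, among them Usp2, with -1.50 ± 0.19 and -1.17 ± 0.19, and Uchl1, which the neuron list also holds, with -0.94 ± 0.20 and -1.35 ± 0.20. Of 26 ubiquitin ligases 1 was higher and 1 lower at 24 h and 0 and 3 at 7 d. Of 23 genes of cullin ligases 0 were higher and 1 lower at 24 h, and 1 and 2 at 7 d, where Fbxo2, a ligase subunit known for neurons, was lower by -1.11 ± 0.18. Of 12 shuttle and segregase genes 1 was higher and 1 lower at 24 h, Ufd1 and Ubqln2, and 0 and 1 at 7 d, Ubqln4. Of 6 modifiers related to ubiquitin, Map1lc3b was lower at both times, and of 10 SUMO and NEDD8 enzymes 0 were called at 24 h and Ube2m and Pias2 were lower at 7 d. No probe of the 4 listed ubiquitin genes was tested.

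The G93A mutation made no difference that passed the test. Of the 64 members 0 were called between genotypes over the 6 pairs of pools, and 0% of all probes were called, with 316 probes and 1 member at an unadjusted p under 0.05. That member was Ube2v1, higher in G93A by 0.17 ± 0.07 (adjusted p = 0.979). The interaction of genotype with injury called 0 members and 0% of all probes, with 344 probes and 2 members at an unadjusted p under 0.05, the 19S subunits Psmd4 (-0.76 ± 0.27) and Psmd11 (0.58 ± 0.21), both at an adjusted p of 0.948. Psmd4, a ubiquitin receptor, read 10.98 and 10.86 in the wild-type shams and 11.54 and 11.25 in the G93A shams. Psmd4 after injury read, in wild type and G93A, 11.73 and 10.98 at 30 min, 11.34 and 10.93 at 4 h, 11.13 and 11.24 at 24 h, and 10.86 and 10.78 at 7 d. Its G93A sham pools lay above its wild-type sham pools, and the order was turned in the pools of 30 min, 4 h and 7 d after injury but not in those of 24 h. At 24 h the activators differed from the shams by a median of 1.05 in wild type and 1.0 in G93A, and at 7 d by 0.84 and 0.81.

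Over the 12 pools, the median Pearson correlation between pairs of genes was 0.82 for the 3 activators, 0.36 for the 15 core genes, 0.28 for the 16 19S genes and 0.11 for the 22 E2 enzymes. Without the wild-type pool of 30 min after injury these values were 0.84, 0.41, 0.43 and 0.04. The pools share their normalization and, within a condition, the injury, so that the correlations describe these pools alone.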

How the data were processed

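The 12 arrays carry 1 pool each. The submitters' processing notes name BeadStudio 3.2.6 for reading the beads, and the deposited intensity values are background-subtracted with nearly equal array means; further steps are not given in the sources used here. Beside each intensity stands its p-value of detection, per the file headers. The deposited probe identifiers are in text order and the values are not. Values were joined to identifiers after sorting, a pairing inferred here: with it the 73 probes whose symbols match the rule were detected on 87.56% of arrays on average, against 47.95% as deposited.

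Signals were corrected by normexp with an offset of 16, quantile-normalized and fitted in limma 3.58.1 (R 4.3.3) on condition and genotype, with an intensity trend, 5 residual degrees of freedom (4 for the interaction) and Benjamini-Hochberg adjustment within each comparison over 13793 of 22226 probes, those with a detection p under 0.05 on at least 2 arrays. A gene is its brightest probe. The fit was tested on simulated data. Arrays give no read depth, and their number limits the precision.

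The members and lists were chosen with earlier results of these data known. Genes named were, per comparison, up to 8 called members in each direction or the 3 smallest p. Set enzymes and subunits and up to 4 of a list were named too. Psmd1, Psmd2, Psmc3ip, Psma5, Psmb2, Ube2f, Ube2g1, Ube2g2, Ube2j1, Ube2j2, Ube2l3, Ube2q2l, Psmg1 and Psmg2 were chosen after their values were seen. Alternatives were other background, scaling, filter, control, variance, weight and probe settings, the series matrix values, and each pool left out.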

Additional observations from a re-analysis of the deposited data

Results flagged for a closer look

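Among the 4 sham pools, the Uba3 level of the G93A pool of 4 h was 8.447, against 8.789 to 8.827 in the other 3. The gap took 0.9 of the range of the 4 pools, above Dixon's critical value for 4 samples. Of 30 members tested in this way 1 passed, and chance gives about 1 in 20. The wild-type pool of 30 min after injury lay lower still, at 7.74, and the G93A pool of that time was the highest of the 12, at 9.21.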

How the results depend on the processing

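No paired analysis was possible because no group holds replicates whose numbers could pair them; the genotype term already sets pools against those of their own genotype, and without it 13 members were called at 24 h and 16 at 7 d. Members called at 24 h were 11, and became 17 with median scaling, 27 with array weights and 7 with the 4 h shams alone. At 7 d they were 16, and became 10 without an intensity trend, 25 with array weights and 8 with the 4 h shams alone. Between 7 d and 24 h they were 0, and became 8 with median scaling and 3 with array weights. With 1 pool left out in turn, the range was 0 to 18 at 30 min, 6 to 23 at 24 h, 2 to 28 at 7 d and 0 to 3 between 7 d and 24 h; the highest counts left out a pool of 30 min after injury and the lowest at 24 h and 7 d left out the wild-type pool of that time. Fits with a lone pool in a condition take its spread from the others. The causes were not tested. Counts between sham times, at 4 h, between genotypes and in the interaction were 0 in every alternative run. Of the values for single members, 1012 kept their direction and side of the threshold, 114 lost the threshold, 34 gained it and 0 changed sign past it. Members near the level without signal have compressed differences.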
